A study of Mus musculus with 4 samples.

Results

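The 38 genes described here encode the machinery that burns fatty acids in the mitochondria and peroxisomes of the kidney, together with the nuclear receptor Ppara and its coactivator Ppargc1a, which control it. They were chosen by name from their known roles, with earlier results of these data known. All 38 were among the 32285 genes listed in every file. The study compared normal kidneys with kidneys after ischemia by spatial transcriptomics, and 4 sections were analysed, 2 labelled as normal controls and 2 labelled as ischemic. All came from left kidneys of male wild-type C57BL/6J mice aged 7 to 8 weeks. The ischemic mice had both renal pedicles clamped for 30 min and were taken 24 h later, whereas the labels name no operation for the normal mice. Which mouse each section came from is not stated, and the study's methods describe technical replicates of each mouse, so the p-values measure only the spread between these sections, which may be technical. All 4 sections lay on a single slide.

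Fatty acids enter a tubule cell, are activated to acyl-CoA, and are carried into mitochondria as carnitine esters. There a cycle of dehydrogenation, hydration, a further dehydrogenation and thiolytic cleavage shortens the chain, and electron transfer flavoprotein hands the electrons to the respiratory chain. Peroxisomes shorten very long and branched chains first, and catalase removes the hydrogen peroxide made on the way. The proximal tubule depends on this route for most of its energy, and PPAR alpha, with the coactivator PGC-1 alpha, drives transcription of much of it.

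In the Visium assay the RNA of a tissue section is captured on barcoded spots that each cover several cells, so fewer cells of a type and less RNA per cell cannot be told apart. The sections held 25957128 to 44528078 unique molecular identifiers (UMIs) over 2401 to 2682 tissue spots. Spots were placed in zones from marker genes of the tubule segments. Cortex took 45.0% and 43.3% of the spots in the normal and 39.7% and 36.5% in the ischemic sections. The outer stripe of the outer medulla took 30.7% and 30.6% in the normal and 25.9% and 26.1% in the ischemic sections. For the inner stripe the shares were 14.1% and 12.8%, and 17.9% and 20.9%. For the inner medulla they were 5.12% and 8.35%, and 12.2% and 11.5%, and pelvis held the rest. The part of these zone shares in the whole-section changes was not tested. Of the spots with at least 2 UMIs of the podocyte gene Nphs1 in them and their neighbours, which was not used for the zones, 75.5% and 82.1% in the normal and 62.8% and 64.4% in the ischemic sections lay in the cortex zone of their section. The outer stripe zone held 20.4% and 11.8% of these spots in the normal and 29.0% and 34.7% in the ischemic sections. How far a zone holds the same tissue in both conditions was not tested. Spots with at least 5 UMIs of an adipocyte list numbered 234 and 103 in the normal but 0 and 1 in the ischemic sections, and 59 of the 134 inner medulla spots of normal section 1 were among them. Levels are given as CPM (counts relative to the size of the library) scaled by edgeR's TMM factors, fold changes are log2 of ischemic over normal, and errors are standard errors (SE). Scaling by total UMIs alone moved the median gene from 0.04 to 0.31 over whole sections, from 0.03 to 0.23 in cortex and from 0.05 to 0.41 in the outer stripe (log2), so changes are reported relative to the TMM scale.

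PPAR alpha binds DNA as a dimer with RXR at direct repeats of AGGTCA with a single base between them, so the 250 bases upstream of the RefSeq start of each gene were searched on both strands. RefSeq windows (GRCm38.p6) were matched for 33 of the 38 genes. The full repeat, a copy of AGGTCA, any base N and a further AGGTCA, was found in none of the 33 and in 0.0335% of all 32851 windows. A single AGGTCA occurred in 7 of the 33 (Acadm, Acadvl, Acsm1, Cat, Cpt1a, Echs1 and Slc27a2) and in 14.0% of all windows. The extended form AAGGTCA, which overlaps it, occurred in Acadm and Slc27a2 and in 4.08% of all windows. Acadm (minus strand, chr3:153944644-153944893) and Slc27a2 (plus strand, chr2:126552774-126553023) are shown because they hold the extended form, and the capitals mark the AGGTCA element, which reads TGACCT where it lies on the other strand. A match describes letters in this window and not a bound site. In the GENCODE M21 annotation Slc27a2 starts earlier, at 126552407, so its window lies inside the gene by that annotation.
Acadm: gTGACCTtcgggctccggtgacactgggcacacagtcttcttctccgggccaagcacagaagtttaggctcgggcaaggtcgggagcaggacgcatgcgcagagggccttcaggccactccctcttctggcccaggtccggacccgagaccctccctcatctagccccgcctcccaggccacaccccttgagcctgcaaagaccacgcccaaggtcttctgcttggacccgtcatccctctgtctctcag
Slc27a2: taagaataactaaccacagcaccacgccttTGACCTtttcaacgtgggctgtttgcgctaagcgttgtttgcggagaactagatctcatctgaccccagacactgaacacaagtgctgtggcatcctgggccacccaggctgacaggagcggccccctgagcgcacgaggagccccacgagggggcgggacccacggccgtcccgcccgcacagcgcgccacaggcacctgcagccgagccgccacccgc
The windows of Pex11a (minus strand, chr7:79743132-79743381), Acaa1b (minus strand, chr9:119157094-119157343) and Crot (minus strand, chr5:8997147-8997396) are shown because Pex11a and Acaa1b had the largest rises of the 38 genes over whole sections and Crot had the largest difference between zones. None of them held the element, so no letters are in capitals. In the GENCODE M21 annotation Crot reaches to 8997324, so part of its window lies inside the gene by that annotation.
Pex11a: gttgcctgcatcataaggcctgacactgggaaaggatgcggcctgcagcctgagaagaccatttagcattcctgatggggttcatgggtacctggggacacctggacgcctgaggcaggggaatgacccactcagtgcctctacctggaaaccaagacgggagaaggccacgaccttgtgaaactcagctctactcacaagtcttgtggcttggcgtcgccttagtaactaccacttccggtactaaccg
Acaa1b: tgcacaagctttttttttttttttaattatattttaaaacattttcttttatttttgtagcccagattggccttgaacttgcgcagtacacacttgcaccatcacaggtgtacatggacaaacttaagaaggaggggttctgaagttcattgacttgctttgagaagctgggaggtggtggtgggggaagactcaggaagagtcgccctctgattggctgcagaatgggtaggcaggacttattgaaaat
Crot: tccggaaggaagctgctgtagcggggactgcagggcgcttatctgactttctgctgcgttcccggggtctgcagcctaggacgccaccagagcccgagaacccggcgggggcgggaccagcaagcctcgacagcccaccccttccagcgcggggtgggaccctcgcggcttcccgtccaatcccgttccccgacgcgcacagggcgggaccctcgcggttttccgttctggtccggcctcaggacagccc

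Over whole sections the 38 genes together took 1.14% and 1.13% of all UMIs in the normal and 0.584% and 0.578% in the ischemic sections. After TMM scaling their summed level was 13732 and 11293 CPM in the normal and 5343 and 5232 CPM in the ischemic sections, 2.37 times lower in the mean. Of the 38 genes, 23 fell, 3 rose and 12 did not pass the test (edgeR's quasi-likelihood test, Benjamini-Hochberg adjusted, threshold 0.05). Among all 15305 genes tested, 29.7% were called lower and 31% higher. The median change of the 38 genes was -0.61 against 0.04 for all genes tested. Both ischemic sections lay below both normal sections for 26 of the 38 genes and above them for 3, against 39.2% and 43% of all genes tested. With scaling by total UMIs alone, 20 fell and 7 rose. Leaving out 1 section at a time gave 19 to 28 lower and 1 to 5 higher, with 5 higher without normal section 1 and 1 higher without ischemic section 2.

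**Figure D1:**
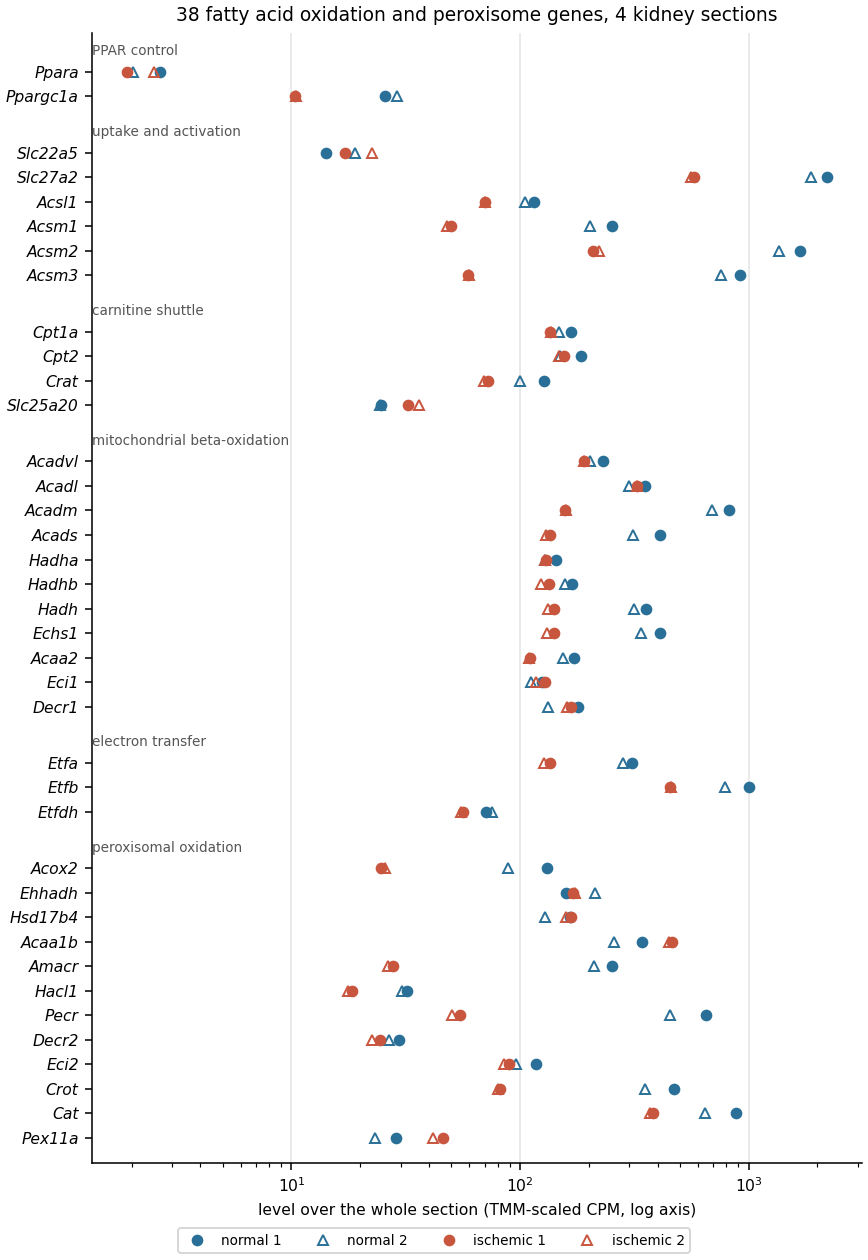
Level of each of the 38 genes in each section, grouped by role; the horizontal axis is TMM-scaled CPM on a log axis, circles are section 1 and triangles section 2 of each condition. Acsm3, Pecr and Amacr show the widest gaps between conditions, while genes such as Acadl, Hadha and Eci1 overlap or nearly touch.

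The change was not the same across the kidney. In the cortex 13 of the 38 genes rose, 16 fell and 9 did not pass the test, against 25.7% higher and 24.1% lower among all 13547 genes tested. In the outer stripe none rose, 32 fell and 6 did not pass, against 34.5% higher and 32.9% lower among all 13305 genes tested. The count of rises in the outer stripe, 0 with edgeR, was also 0 at an unadjusted p under 0.05 and with DESeq2, but 3 with scaling by total UMIs alone (Slc22a5, Slc25a20 and Pex11a), which left 25 lower. The summed level of the 38 genes fell from 14057 and 12065 CPM to 8999 and 9343 CPM in the cortex (1.42 times lower) and from 18783 and 17431 CPM to 4875 and 5047 CPM in the outer stripe (3.65 times lower). Of the 38 genes, 8 rose in cortex and fell in the outer stripe: Acadl, Acadvl, Cpt2, Decr1, Decr2, Eci1, Ehhadh and Hadha. A further 16 fell in both zones. Calls in the zones were not counted jointly over all genes, so how far these counts are particular to the 38 genes is not known. When cortex was instead taken as the 118 to 269 spots of a section with at least 2 UMIs of Nphs1 in them and their neighbours, 7 of the 38 genes rose and 19 fell in cortex. Among all genes tested, 4255 were called under that definition, a total that was not split by direction. Of the 8, Decr1 and Ehhadh kept both calls under every alternative run, while scaling by total UMIs alone took the outer stripe falls of Acadl, Decr2, Eci1 and Hadha below the threshold. Under the Nphs1 definition Decr2 turned (-0.10) and the rises of Cpt2 (0.37), Eci1 (0.38), Acadvl, Hadha and Slc22a5 did not pass the test.

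**Figure D2:**
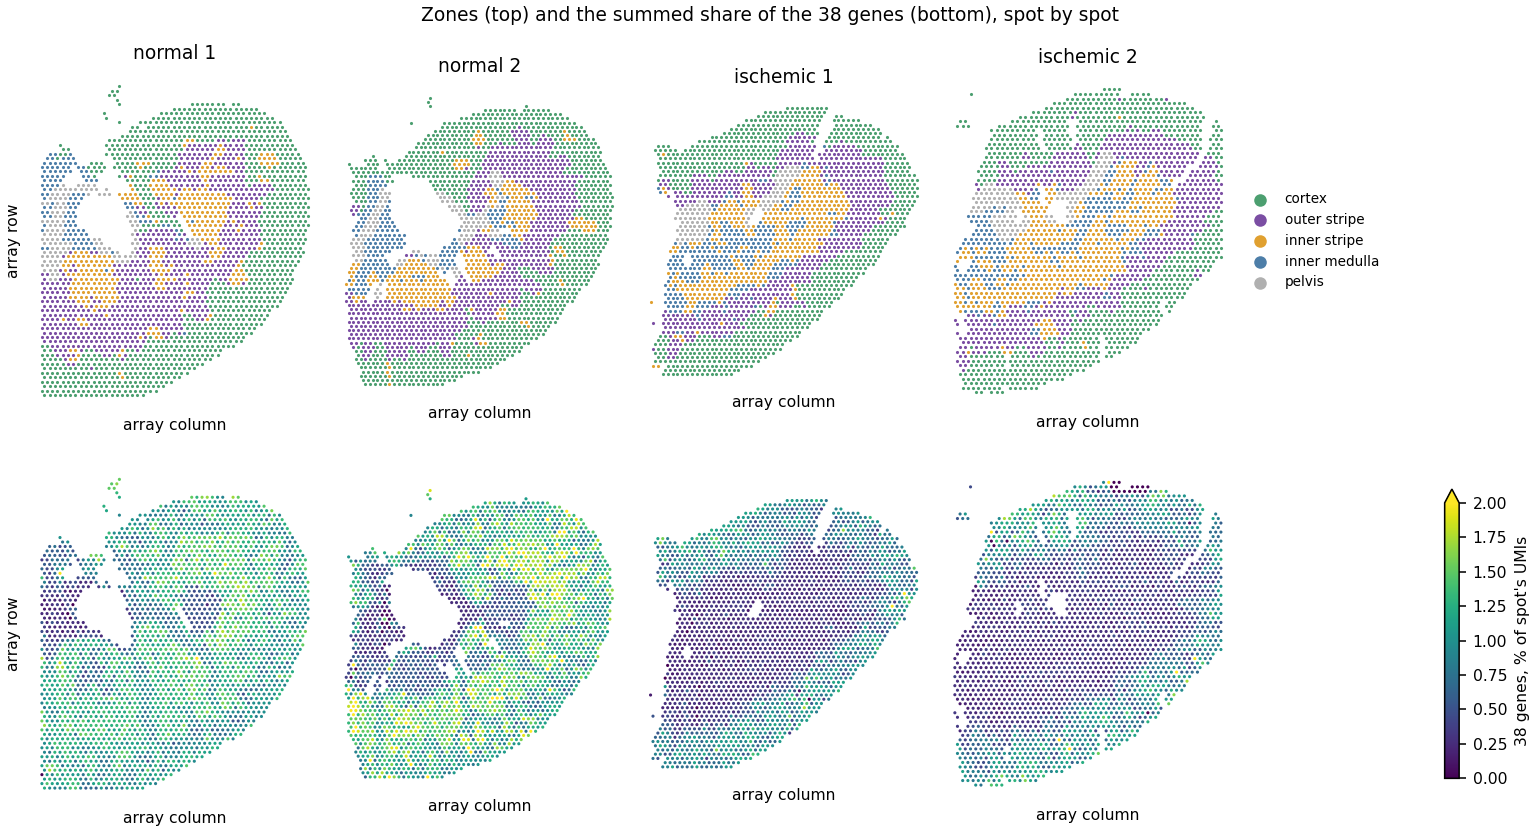
Top, the zone of each spot in the 4 sections; bottom, the share of each spot's UMIs that came from the 38 genes, on a color scale from 0 to 2% (higher values are drawn as 2%), with array column and row as the axes. The normal sections are bright in cortex and outer stripe, while in the ischemic sections signal remains at the outer rim and the medulla is dark.

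Of the regulators, Ppara, the receptor, was scarce in every section, at 2.66 and 2.03 CPM in the normal and 1.91 and 2.51 CPM in the ischemic sections. The groups overlapped and no change was detectable at this depth (log2 fold change -0.10 ± 0.25 SE, edgeR adjusted p = 0.752), nor in cortex (0.15 ± 0.27 SE) or outer stripe (0.49 ± 0.36 SE). Ppargc1a, which encodes the coactivator PGC-1 alpha of mitochondrial biogenesis, stood at 25.5 and 29.1 CPM in the normal and 10.4 and 10.5 CPM in the ischemic sections. Both ischemic sections were lower, and the change (-1.38 ± 0.11 SE, edgeR adjusted p = 6.93e-06) was -1.04 ± 0.12 SE in cortex and -2.01 ± 0.17 SE in the outer stripe.

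Of the 6 genes of uptake and activation 5 fell, among them Acsm3, which had the largest fall of the 38 genes over whole sections. All genes tested were lower in 29.7% and higher in 31%. Acsm1, Acsm2 and Acsm3 encode medium-chain acyl-CoA synthetases and lie within 233 kb of each other on chromosome 7 (119554340 to 119787513, GRCm38). Acsm3 dropped from 919 and 756 CPM in the normal to 59.0 and 59.8 CPM in the ischemic sections (log2 fold change -3.82 ± 0.16 SE, edgeR adjusted p = 2.53e-07). Acsm2 stood at 1679 and 1363 CPM in the normal and 209 and 221 CPM in the ischemic sections (-2.82 ± 0.17 SE, edgeR adjusted p = 1.71e-06). Acsm1 went from 251 and 203 CPM to 49.9 and 48.1 CPM (-2.21 ± 0.14 SE, edgeR adjusted p = 1.86e-06). The 3 synthetases fell in each zone tested, with log2 fold changes of -3.09, -2.43 and -1.43 in cortex for Acsm3, Acsm2 and Acsm1, and of -3.87, -2.81 and -2.89 in the outer stripe. Slc27a2, a fatty acid transporter that also activates very long chains, was at 2206 and 1878 CPM in the normal and 577 and 559 CPM in the ischemic sections (-1.85 ± 0.17 SE, edgeR adjusted p = 1.95e-05). Its fall was -0.82 ± 0.12 SE in cortex and -2.35 ± 0.14 SE in the outer stripe. Acsl1, the long-chain acyl-CoA synthetase, fell over whole sections (-0.65 ± 0.11 SE), in cortex (-0.73 ± 0.10 SE) and in the outer stripe (-0.94 ± 0.10 SE).

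Slc22a5, which brings carnitine into the cell, was the member of this role that did not fall. It measured 14.1 and 19.1 CPM in the normal and 17.2 and 22.4 CPM in the ischemic sections, and the groups overlapped (0.26 ± 0.17 SE, edgeR adjusted p = 0.202). In cortex it was called higher (0.59 ± 0.18 SE, edgeR adjusted p = 0.0128), a call that was lost when cortex was defined by Nphs1 (0.17) and without ischemic section 2 (0.36). Of the 50-base windows in the last 500 bases of its transcripts, 74.1% are also found in Slc22a21, so its counts may be shared with that paralog.

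Of the 4 genes of the carnitine shuttle, Slc25a20 rose and Crat fell over whole sections, and the other 2 did not pass the test. All genes tested were lower in 29.7% and higher in 31%. Cpt1a, which loads long-chain acyl groups onto carnitine at the outer membrane and is the control point of the pathway, stood at 167 and 149 CPM in the normal and 135 and 137 CPM in the ischemic sections (-0.21 ± 0.12 SE, edgeR adjusted p = 0.142). Its cortex levels overlapped (0.05 ± 0.10 SE), while in the outer stripe it fell from 166 and 154 CPM to 115 and 116 CPM (-0.44 ± 0.10 SE, edgeR adjusted p = 0.000306). Scaling by total UMIs alone took that fall below the threshold.

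Cpt2, which unloads the acyl group inside the mitochondrion, measured 185 and 149 CPM in the normal and 155 and 148 CPM in the ischemic sections (-0.14 ± 0.13 SE, edgeR adjusted p = 0.387). It rose in cortex from 196 and 164 CPM to 264 and 265 CPM (0.57 ± 0.11 SE, edgeR adjusted p = 0.000442) and fell in the outer stripe from 236 and 214 CPM to 141 and 150.0 CPM (-0.60 ± 0.10 SE, edgeR adjusted p = 1.67e-05). Slc25a20, the translocase that carries acylcarnitines across the inner membrane, was one of the 3 rises over whole sections, from 24.6 and 24.5 CPM to 32.2 and 36.1 CPM (0.48 ± 0.10 SE, edgeR adjusted p = 0.00235), a call that was lost without ischemic section 2 (0.41). In cortex it rose from 24.4 and 25.0 CPM to 46.9 and 50.7 CPM (1.00 ± 0.10 SE, edgeR adjusted p = 2.27e-06), and its outer stripe levels of 31.1 and 30.4 CPM in the normal and 30.7 and 37.8 CPM in the ischemic sections did not pass the test. Crat, carnitine acetyltransferase, fell over whole sections (-0.68 ± 0.13 SE) and in the outer stripe (-1.25 ± 0.10 SE), and did not pass the test in cortex (-0.01 ± 0.12 SE).

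Among the 11 genes of the mitochondrial cycle, 6 fell over whole sections, 5 did not pass and none rose (0 also at an unadjusted p under 0.05), against 29.7% lower and 31% higher among all genes tested. The acyl-CoA dehydrogenases start each turn on chains of different length. Acadvl, for very long chains, stood at 231 and 202 CPM in the normal and 190.1 and 191 CPM in the ischemic sections (-0.18 ± 0.12 SE, edgeR adjusted p = 0.221). Acadl, for long chains, stood at 354 and 301 CPM and 324 and 325 CPM, and the groups overlapped (-0.01 ± 0.13 SE, edgeR adjusted p = 0.938). Acadm, for medium chains, fell from 824 and 691 CPM to 157 and 159 CPM (-2.26 ± 0.15 SE, edgeR adjusted p = 2.74e-06), with no overlap. Acads, for short chains, fell by 1.44 on the log2 scale.

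In cortex Acadvl and Acadl rose (0.45 ± 0.11 SE and 0.67 ± 0.11 SE), whereas Acadm and Acads fell (-0.94 ± 0.10 SE and -0.83 ± 0.12 SE). In the outer stripe Acadm went from 1570.5 and 1475 CPM to 179 and 198 CPM (-2.98 ± 0.13 SE, edgeR adjusted p = 5.06e-15), while Acads, Acadvl and Acadl fell by 1.86, 0.66 and 0.51 on the log2 scale. The cortex call of Acadvl was lost when cortex was defined by Nphs1 (0.18) and without ischemic section 2 (0.41), and the outer stripe call of Acadl was lost with scaling by total UMIs alone (-0.15) and without ischemic section 1 (-0.47).

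Hadha and Hadhb encode the subunits of the trifunctional protein, which takes long chains through the later steps. Their starts face away from each other on chromosome 5, with Hadha on the minus strand from 30154980 and Hadhb on the plus strand from 30155253 (RefSeq, GRCm38.p6), so that 272 bases lie between them. By these starts the 250 bases upstream of Hadha (chr5:30154981-30155230) make up most of the stretch that the pair shares, and are shown for that reason. In the GENCODE M21 annotation Hadha reaches to 30155162 and Hadhb starts at 30155248. By that annotation the gap is shorter and part of the window lies inside Hadha.
Hadha: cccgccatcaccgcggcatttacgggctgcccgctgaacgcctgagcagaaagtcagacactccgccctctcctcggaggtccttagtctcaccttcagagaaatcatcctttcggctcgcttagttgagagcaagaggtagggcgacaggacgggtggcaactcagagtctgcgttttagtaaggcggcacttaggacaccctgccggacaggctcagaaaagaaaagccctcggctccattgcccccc
Hadha stood at 144 and 129 CPM in the normal and 129.7 and 128 CPM in the ischemic sections (-0.08 ± 0.11 SE, edgeR adjusted p = 0.559). Hadhb was called lower over whole sections (-0.35 ± 0.11 SE, edgeR adjusted p = 0.026), a call that was lost with scaling by total UMIs alone (-0.077) and without ischemic section 1 (-0.39) or 2 (-0.28). In the outer stripe both were called lower (-0.42 ± 0.10 SE for Hadha and -0.48 ± 0.10 SE for Hadhb), and both calls were lost with scaling by total UMIs alone (-0.058 and -0.12). In cortex Hadha was called higher (0.33 ± 0.10 SE) and Hadhb was not (0.01 ± 0.10 SE), and the cortex call of Hadha was lost with DESeq2 (0.30), without ischemic section 1 (0.34) or 2 (0.33) and with the Nphs1-defined cortex (0.035). Of the windows at the end of Hadhb, 35.4% are shared with the annotated genes Gm13910 and Gm9108.

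Eci1 and Decr1 prepare the double bonds of unsaturated chains for the cycle. Eci1, an enoyl-CoA isomerase, measured 125 and 112 CPM in the normal and 129 and 118 CPM in the ischemic sections (0.05 ± 0.12 SE, edgeR adjusted p = 0.705). Decr1, a dienoyl-CoA reductase, measured 179.9 and 133 CPM and 167 and 161 CPM (0.07 ± 0.15 SE, edgeR adjusted p = 0.723). In cortex and outer stripe both genes were called, in opposite directions. Eci1 rose in cortex from 134 and 119 CPM to 227 and 219 CPM (0.83 ± 0.10 SE, edgeR adjusted p = 9.65e-06) and fell in the outer stripe from 141 and 133 CPM to 98.9 and 93.6 CPM (-0.48 ± 0.10 SE, edgeR adjusted p = 0.000138). Its cortex call was lost with the Nphs1-defined cortex (0.38) and its outer stripe call with scaling by total UMIs alone (-0.11). Decr1 rose in cortex from 199 and 154 CPM to 326 and 334 CPM (0.92 ± 0.12 SE, edgeR adjusted p = 1.69e-05) and fell in the outer stripe from 227 and 188 CPM to 125 and 129 CPM (-0.68 ± 0.10 SE, edgeR adjusted p = 5.56e-06).

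The remaining enzymes of the cycle were called lower in both zones. Echs1, the enoyl-CoA hydratase, and Hadh, the hydroxyacyl-CoA dehydrogenase for short and medium chains, fell by 1.46 and 1.29 on the log2 scale over whole sections. Acaa2, the thiolase that ends the turn, fell over whole sections (-0.57 ± 0.11 SE), in cortex (-0.39 ± 0.10 SE) and in the outer stripe (-0.51 ± 0.09 SE). Scaling by total UMIs alone ended its calls in cortex (-0.19) and outer stripe (-0.14), and its calls in cortex (-0.35 and -0.43) and over whole sections (-0.56 and -0.55) were lost without ischemic section 1 or 2. The 3 genes of electron transfer were called lower over whole sections, against 29.7% of all genes tested. Etfa and Etfb, which encode the flavoprotein, fell by 1.17 and 0.97, and Etfdh, its dehydrogenase in the inner membrane, by 0.39. The call of Etfdh was lost with scaling by total UMIs alone (-0.13) and without ischemic section 1 (-0.40) or 2 (-0.37). In the outer stripe their falls were 1.41, 1.42 and 0.90, whereas in cortex Etfdh did not pass the test (0.22 ± 0.10 SE) and the call of Etfb (-0.43 ± 0.12 SE) was lost without ischemic section 1 (-0.37) or 2 (-0.47). Of the windows at the end of Etfb, 58.1% are shared with the annotated gene Gm45233, so its level is uncertain.

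Of the 12 peroxisomal genes 7 were lower, 2 higher and 3 not called over whole sections, against 29.7% lower and 31% higher among all genes tested. Pecr, a peroxisomal enoyl-CoA reductase, went from 648 and 453 CPM in the normal to 54.5 and 50.4 CPM in the ischemic sections (-3.39 ± 0.19 SE, edgeR adjusted p = 1.11e-06). Amacr, the racemase that readies branched chains and bile acid intermediates for oxidation, went from 253 and 210.5 CPM to 27.8 and 26.5 CPM (-3.09 ± 0.14 SE, edgeR adjusted p = 3.08e-07). Both fell in cortex (-2.90 ± 0.14 SE for Pecr and -2.46 ± 0.11 SE for Amacr) as well as in the outer stripe (-3.73 ± 0.13 SE and -3.67 ± 0.11 SE). Acox2, the oxidase of branched chains, fell over whole sections from 131 and 88.4 CPM to 24.7 and 25.5 CPM (-2.13 ± 0.17 SE, edgeR adjusted p = 9.75e-06) and in the outer stripe from 253 and 204 CPM to 25.3 and 24.7 CPM (-3.16 ± 0.12 SE, edgeR adjusted p = 3.42e-16), but its cortex levels of 72.8 and 50.04 CPM in the normal and 45.2 and 55.0 CPM in the ischemic sections overlapped.

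Crot, which passes shortened chains from peroxisomes to mitochondria as carnitine esters, dropped from 470.0 and 353 CPM to 81.4 and 80.1 CPM (-2.35 ± 0.16 SE, edgeR adjusted p = 3.39e-06). Its fall differed between zones. Cortex levels were 209.7 and 170.2 CPM in the normal and 133 and 138 CPM in the ischemic sections (-0.47 ± 0.11 SE, edgeR adjusted p = 0.00232, a call that was lost without ischemic section 1, -0.43, and with 1 model for all zones, -0.49), and outer stripe levels were 960.2 and 821 CPM and 77.3 and 79.9 CPM (-3.47 ± 0.13 SE, edgeR adjusted p = 2.17e-16). Cat, catalase, did not pass the test in cortex (-0.21 ± 0.13 SE) and fell in the outer stripe from 1241 and 1022 CPM to 365 and 373 CPM (-1.58 ± 0.12 SE, edgeR adjusted p = 1.71e-10). Hacl1, a lyase of alpha-oxidation, fell by 0.79 on the log2 scale over whole sections, and 38.8% of the windows at its end are shared with the annotated gene Gm49387.

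Ehhadh, the bifunctional enzyme of the classical peroxisomal cycle, showed no change over whole sections that passed the test, with 158 and 212 CPM in the normal and 170.0 and 173 CPM in the ischemic sections (-0.11 ± 0.15 SE, edgeR adjusted p = 0.552). In cortex it rose from 127 and 174 CPM to 354 and 387 CPM (1.32 ± 0.14 SE, edgeR adjusted p = 3.24e-06). In the outer stripe it fell from 266 and 419.6 CPM to 125 and 151 CPM (-1.28 ± 0.16 SE, edgeR adjusted p = 1.83e-07). The groups did not overlap in either zone.

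Hsd17b4, the bifunctional enzyme for branched chains, stood at 165 and 129 CPM and 168 and 158 CPM over whole sections (0.15 ± 0.14 SE, edgeR adjusted p = 0.38) and rose in cortex (0.69 ± 0.11 SE). Acaa1b, a peroxisomal thiolase, rose over whole sections from 342 and 257 CPM to 464 and 448 CPM (0.61 ± 0.16 SE, edgeR adjusted p = 0.00932), a call that was lost without ischemic section 1 (0.59) or 2 (0.64). In cortex it rose from 422 and 322 CPM to 998 and 1040.0 CPM (1.47 ± 0.13 SE, edgeR adjusted p = 4.51e-07), and in the outer stripe it did not pass the test (-0.21 ± 0.11 SE). Because 38.8% of the windows at its end are shared with Acaa1a, the counts of the thiolases may be split between them. Its exons also overlap Dlec1 on the opposite strand, as those of Acsm3 overlap Eri2 and those of Hadha overlap Garem2, and no source used here says how strand was treated in counting.

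Pex11a, which promotes the division of peroxisomes, had the largest rise of the 38 genes over whole sections, from 28.7 and 23.1 CPM to 46.3 and 41.7 CPM (0.76 ± 0.12 SE, edgeR adjusted p = 0.000556). In cortex it went from 30.6 and 24.7 CPM to 90.5 and 90.3 CPM (1.71 ± 0.11 SE, edgeR adjusted p = 1.25e-08). Its outer stripe levels of 37.8 and 32.3 CPM in the normal and 35.4 and 34.8 CPM in the ischemic sections overlapped. Decr2, a peroxisomal dienoyl-CoA reductase, was called lower over whole sections (-0.26 ± 0.10 SE, edgeR adjusted p = 0.0437), but the call was lost with DESeq2 (-0.30), without normal section 1 (-0.18) and without ischemic section 1 (-0.31) or 2 (-0.20), and the sign turned with scaling by total UMIs alone (0.01). In cortex its rise (0.28 ± 0.10 SE) was lost without normal section 2 (0.17) and without ischemic section 1 (0.24) or 2 (0.32). The rise was also lost with DESeq2 (0.25), RLE size factors (0.25) and 1 model for all zones (0.26). Zones set without neighbours (0.23) and spots away from zone boundaries (0.26) lost it too. Eci2, a peroxisomal isomerase, stood at 117 and 95.7 CPM and 89.3 and 85.5 CPM (-0.28 ± 0.12 SE, edgeR adjusted p = 0.0727) and fell in the outer stripe (-0.71 ± 0.10 SE).

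Whether the change differed between outer stripe and cortex was tested directly, as the log2 change in the outer stripe minus that in the cortex with the section kept as a block. The difference was negative in 37 of 38 genes, with a median of -1.05 against -0.03 for all genes tested, and passed edgeR's test in 32, all of them lower in the outer stripe. None of the 38 was called higher, either at an unadjusted p under 0.05 or with DESeq2, which called 31 lower. Among all 14539 genes tested, 13.2% were called lower and 7.96% higher. The largest differences were those of Crot (-3.03 ± 0.29 SE, edgeR adjusted p = 6.85e-06), Acox2 (-2.93 ± 0.35 SE, edgeR adjusted p = 3.64e-05), Ehhadh (-2.61 ± 0.28 SE, edgeR adjusted p = 1.49e-05) and Acadm (-2.06 ± 0.27 SE, edgeR adjusted p = 8.36e-05). By role, the difference passed in 12 of 12 peroxisomal genes, 10 of 11 genes of the mitochondrial cycle, 4 of 4 of the carnitine shuttle, 3 of 3 of electron transfer and 2 of 6 of uptake and activation. The 6 genes without a call were Ppara, Slc22a5, Acsl1, Acsm2, Acsm3 and Acaa2, with differences from -0.82 in Acsm3 to 0.30 in Ppara. Without ischemic section 1 the count was 15 and without ischemic section 2 it was 20, and each of these left the ischemic arm with 1 section that is assumed to vary like the others. With cortex defined by Nphs1 it was 25.

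**Figure D3:**
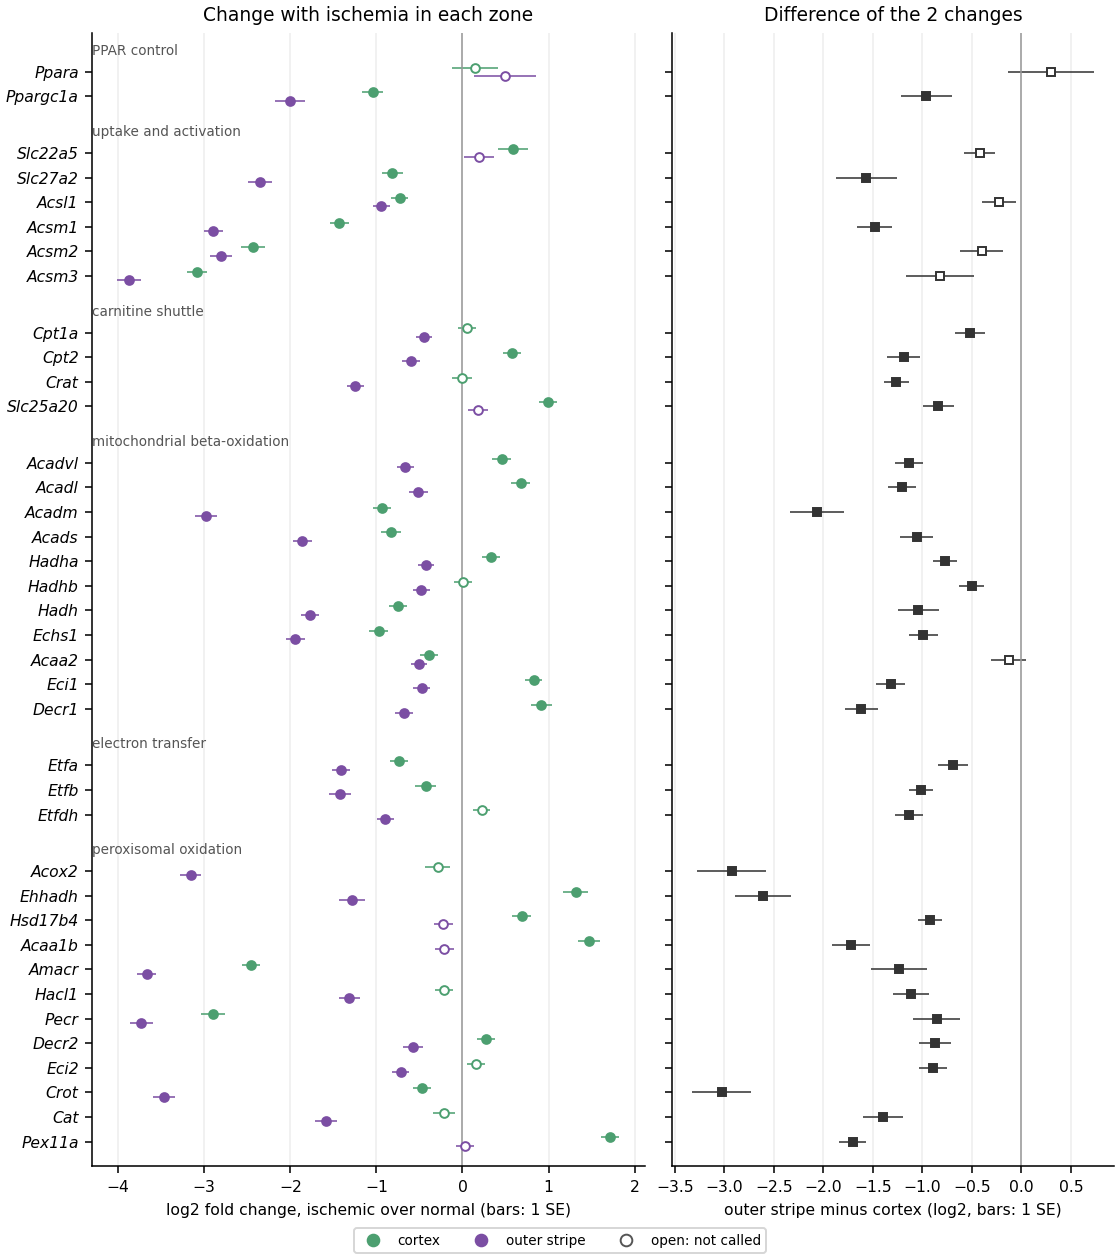
Left, log2 fold change of ischemic over normal for each gene in cortex (green) and outer stripe (purple); right, outer stripe change minus cortex change from the test of that difference; bars are 1 SE and open symbols did not pass the test. The purple points lie to the left of the green ones in all genes but Ppara, and Crot, Acox2 and Ehhadh are farthest apart.

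Beside these changes the zones differed in the normal kidney. In the normal sections 13 of the 38 genes were higher in outer stripe than in cortex and 7 lower, against 12.6% and 10.3% of all 14539 genes tested (edgeR, section as a block). The genes with the largest excess in the normal outer stripe were Crot (2.24 ± 0.21 SE), Acox2 (1.93 ± 0.23 SE), Acsm3 (1.85 ± 0.24 SE), Acadm (1.76 ± 0.19 SE) and Ehhadh (1.18 ± 0.20 SE). Those with more in the normal cortex were led by Acaa2 (-1.38 ± 0.13 SE), Acsl1 (-0.76 ± 0.12 SE), Slc22a5 (-0.58 ± 0.11 SE) and Acsm2 (-0.55 ± 0.15 SE). The call of Acsm2 was lost without ischemic section 2 (-0.58), with cortex defined by Nphs1 (-0.39) and without the section block (-0.56). Without ischemic section 1 or 2, which enter the shared estimate of the spread, 8 genes were higher and 4 or 3 lower, and without normal section 1, 20 were higher. With cortex defined by Nphs1, 15 were higher and 3 lower.

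The zone of the highest level differed between conditions, which is given as a description. The counts in this paragraph were not made over all genes, so how far they are particular to the 38 genes is not known. In both normal sections 23 of the 38 genes had their highest level in the outer stripe and 8 in cortex, whereas in both ischemic sections 35 had it in cortex. The genes that were higher in outer stripe than in cortex numbered 24 and 27 in normal sections 1 and 2, with a median log2 ratio of 0.14 and 0.24. In each ischemic section the number was 1, and the median log2 ratio was -0.89 and -0.92. The exception in both ischemic sections was Acsm3, at 53.7 and 57.2 CPM in cortex and 107 and 119 CPM in the outer stripe.

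**Figure D4:**
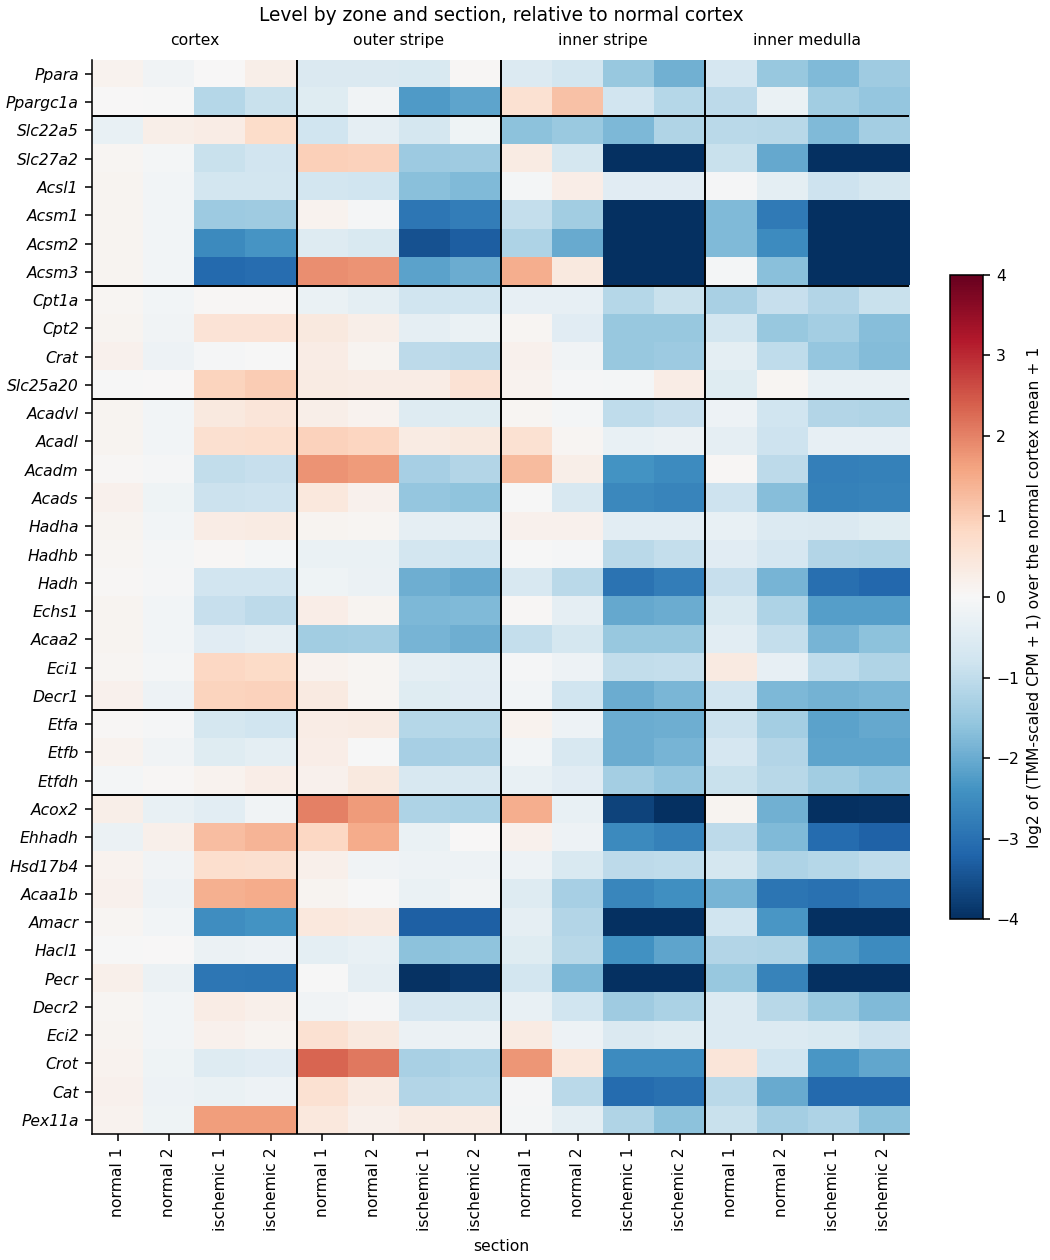
Heat map of the level of each gene in each zone and section, as log2 of (TMM-scaled CPM + 1) over the mean of the 2 normal cortex sums + 1, on a scale from -4 to 4; values beyond the scale are drawn at its ends, and black lines part roles and zones. Crot, Acox2, Acsm3 and Acadm are red in the normal outer stripe and blue in the ischemic one, and Pex11a, Acaa1b and Ehhadh are red in the ischemic cortex.

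Deeper in the medulla most of the genes also fell. In the inner stripe 35 of 37 genes tested fell and none rose, against 23% lower and 20.2% higher among all 12543 genes tested, and no rise was called at an unadjusted p under 0.05 or with DESeq2, which gave 33 falls. The median of the 37 was -1.56, and Acsm3 (-5.86 ± 0.39 SE, edgeR adjusted p = 9.95e-06) and Acox2 (-5.12 ± 0.58 SE, edgeR adjusted p = 0.000118) were at the low end. The normal sections differed widely there, with 1312 and 623 CPM of Acsm3 and 169 and 49.6 CPM of Acox2, against 17.5 and 15.1 CPM and 3.79 and 2.39 CPM in the ischemic sections. Without normal section 1 the change was -5.24 for Acsm3 and -3.97 for Acox2, and without normal section 2 it was -5.80 for Acox2. The 2 genes that did not pass were Slc22a5 (0.14 ± 0.31 SE) and Slc25a20 (0.08 ± 0.20 SE), and Ppara was too low to be tested. When zones were set without neighbours, 57.8% to 64.4% of the inner stripe spots of a section kept their zone. With zones set that way the inner stripe calls of Acaa1b (-0.53) and Pex11a (-0.15) were lost. Slc27a2 stood at 2274 and 1115 CPM in the normal inner stripe, against 1903 and 1740 CPM in the normal cortex. The part of mixing with neighbouring zones was not tested. In the inner medulla 21 of 37 fell and none rose, against 16.4% lower and 11.1% higher among all 11227 genes tested, again with 0 rises at an unadjusted p under 0.05 and with DESeq2, which gave 19 falls. Without ischemic section 1 or 2 that count was 13, and without the spots rich in adipocyte genes it was 21. In the normal sections the inner medulla held lower levels than cortex for 30 of the 38 genes and higher levels for none (edgeR, against 20.4% lower and 18.8% higher among all genes tested, with 0 rises also at an unadjusted p under 0.05 and with DESeq2), and the inner stripe held lower levels for 16 and higher for 6 (14.9% and 14.1%). Ppargc1a was among the genes higher in the normal inner stripe (45.1 and 67.2 CPM, against 30.0 and 28.8 CPM in cortex). In spots away from zone boundaries, the count of genes higher in the normal inner stripe was 2 instead of 6.

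Most of the other genes of the pathway also fell. Of 24 further fatty acid oxidation genes tested over whole sections, 17 fell and 3 rose, with a median of -0.86. Among all genes tested, 29.7% were called lower and 31% higher. Acsm5, a further medium-chain synthetase, and Acad12, an acyl-CoA dehydrogenase, fell most (-3.67 ± 0.15 SE and -2.43 ± 0.13 SE). Acsl4, a synthetase that favors arachidonic acid, rose from 15.1 and 16.5 CPM to 97.9 and 107 CPM (2.70 ± 0.11 SE, edgeR adjusted p = 2.06e-07), and Acsf2 rose from 3.98 and 4.02 CPM to 10.2 and 9.18 CPM (1.28 ± 0.15 SE).

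Of 20 peroxisome biogenesis genes 15 fell and none rose, with 0 rises also at an unadjusted p under 0.05 in edgeR (median -0.51). For this list and those below, the shares of all genes tested over whole sections were 29.7% lower and 31% higher. Pxmp2, a channel of the peroxisomal membrane, fell from 190.4 and 132 CPM to 16.2 and 15.0 CPM (-3.37 ± 0.18 SE, edgeR adjusted p = 8.19e-07), and Pex11g fell by 1.15 on the log2 scale. Of 19 further peroxisomal enzymes tested 13 fell and 2 rose (median -1.33), led downward by Hao2 (-3.67 ± 0.14 SE), a hydroxyacid oxidase, and Pipox (-2.74 ± 0.17 SE), which oxidizes pipecolic acid. Xdh, xanthine dehydrogenase, rose from 12.8 and 13.1 CPM to 48.5 and 48.4 CPM (1.91 ± 0.09 SE, edgeR adjusted p = 5.39e-07). Uox, urate oxidase, had 0 UMIs in both normal sections and 2.12 and 2.06 CPM in the ischemic sections, at least 45.0-fold higher when the 3 counts that 0 allows are taken over the normal group. Of 17 genes of the tricarboxylic acid cycle 13 fell, among them Sdhb (-1.45 ± 0.14 SE) and Idh3g (-1.04 ± 0.14 SE), and 1 rose, Cs, citrate synthase (0.28 ± 0.11 SE, edgeR adjusted p = 0.0452), with a list median of -0.75.

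Targets and partners of PPAR alpha moved both ways, with 9 higher, 6 lower and a median of 0.10 over whole sections, 12 higher and 6 lower in cortex (median 1.77), and 7 higher and 9 lower of 18 tested in the outer stripe (median -0.51). All genes tested were lower in 29.7% and higher in 31% over whole sections, lower in 24.1% and higher in 25.7% in cortex, and lower in 32.9% and higher in 34.5% in the outer stripe, so the share of the list that was lower over whole sections and higher in the outer stripe was near that of all genes. Fabp1, the liver-type fatty acid binding protein, rose from 0.79 and 0.62 CPM to 12.0 and 9.77 CPM (3.93 ± 0.22 SE, edgeR adjusted p = 1.02e-06). Fgf21, a hormone of the fasting response, had 3 UMIs in the normal sections together and 1.24 and 1.29 CPM in the ischemic sections. Fabp3, the heart-type binding protein, and Pparg, the adipocyte receptor, fell (-1.70 ± 0.13 SE and -1.68 ± 0.25 SE). Of 18 genes of lipid storage and synthesis 4 rose and 8 fell (median -0.16). Plin2, which coats lipid droplets, rose from 89.4 and 66.3 CPM to 1194 and 1141 CPM (3.91 ± 0.19 SE, edgeR adjusted p = 5.39e-07), and Hilpda, an inhibitor of lipid breakdown, rose from 2.68 and 3.66 CPM to 12.2 and 13.3 CPM. Scd1, a desaturase, and Plin4, a droplet protein of adipocytes, fell (-3.20 ± 0.21 SE and -2.13 ± 0.29 SE).

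**Figure D5:**
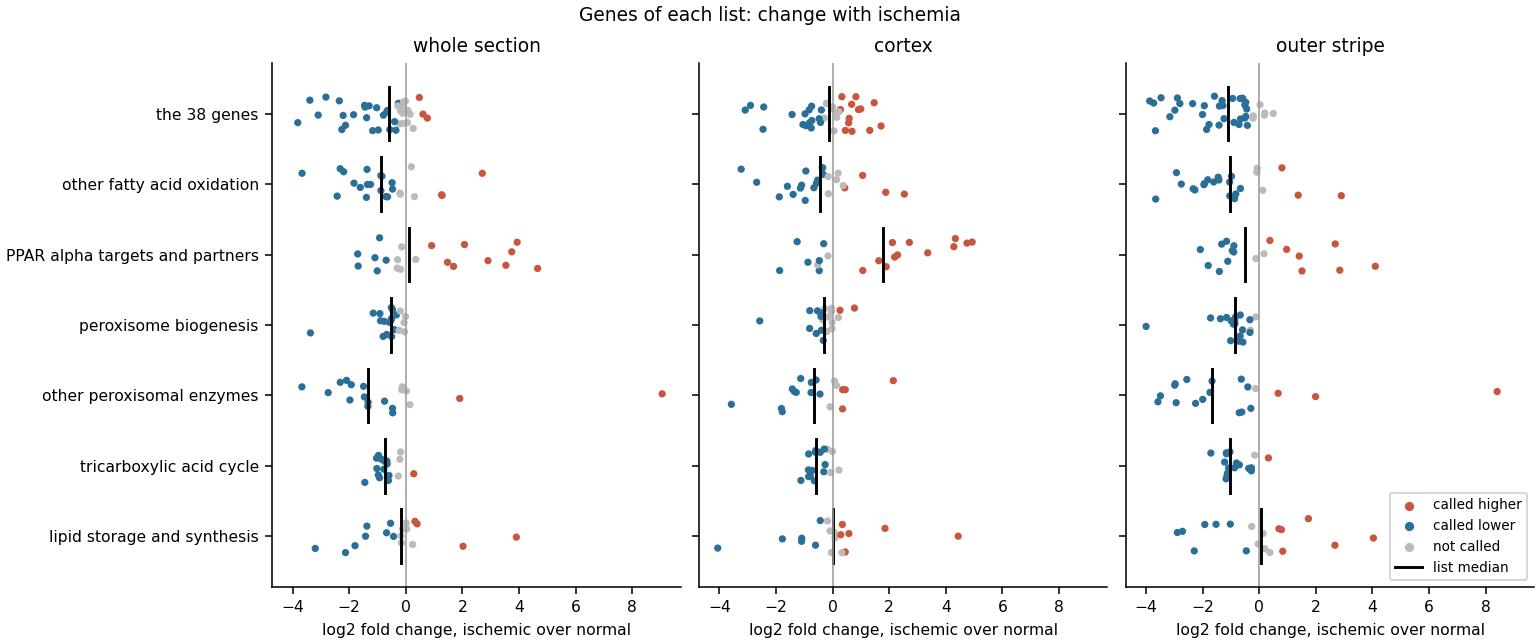
Log2 fold change of ischemic over normal for each gene of each list over whole sections, in cortex and in the outer stripe; red points were called higher, blue lower and gray not called, and the black bar is the list median. The 38 genes center near 0 in cortex (median -0.11) and below it in the outer stripe (median -1.09), and the PPAR alpha list lies to the right in cortex.

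Markers of other cell types and states moved with the conditions, and their part in the changes above was not tested. The summed level of 10 proximal tubule markers was 6813 and 5507 CPM in the normal and 995 and 978 CPM in the ischemic sections, and none of the 10 was at 0 in any section. In cortex it was 11431 and 9540.3 CPM and 1964 and 2019.8 CPM, and in the outer stripe 4560.2 and 4399 CPM and 639 and 675 CPM. The 8 markers of injured tubules went from 1199 and 1633 CPM to 41374 and 43362 CPM over whole sections, with 34175 and 32310.5 CPM in the ischemic cortex and 34469.5 and 33739 CPM in the ischemic outer stripe. The thick ascending limb list stood at 5449 and 5358 CPM and 2835 and 2885 CPM and the collecting duct list at 870.4 and 1014 CPM and 642 and 769 CPM.

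Neutrophil markers went from 1.71 and 2.17 CPM, with 1 of 6 at 0 in each normal section, to 162 and 161 CPM, and macrophage markers stood at 238 and 283 CPM and 213 and 205 CPM. Hemoglobin genes went from 10710.2 and 9046 CPM to 698 and 1462 CPM. The adipocyte list went from 502 and 214 CPM to 7.15 and 6.74 CPM, and without spots rich in it the whole-section counts of the 38 genes were 3 higher and 22 lower. The zone markers themselves also moved. The cortex list went from 6256 and 5584 CPM to 1233 and 1253 CPM within cortex, the outer stripe list from 4564 and 3733 CPM to 472 and 499 CPM within the outer stripe, and the inner medulla list from 1342 and 1146 CPM to 6411 and 6336 CPM within the outer stripe. Without the spots that held Nphs1, 33 of the 38 genes fell in the outer stripe, against 32 with them.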

How the data were processed

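Visium libraries of 4 kidney sections, 2 per condition, were analysed. The deposited values are raw UMI counts of each gene in each spot, which the matrix headers credit to Space Ranger 1.3.0 and the submitters' processing notes to mm10. Of the 32285 gene identifiers, 32158 (99.6%) were matched in GENCODE M21. Counts were summed over each section and over zones set from marker genes, each spot averaged with up to 6 neighbours, and spots with at least 10 counts and in the top 5% of the pelvis list were called pelvis, which was not tested. Sums of 2 sections per condition were compared with edgeR 4.0.16 in R 4.3.3 (TMM scaling, filterByExpr, quasi-likelihood F test, Benjamini-Hochberg adjustment over all genes tested, threshold 0.05). Zones were compared in 1 model of 16 sums with the section as a block.

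The 38 genes and all lists and tests were chosen with earlier results of these data known. Genes given section by section were those with the 3 largest rises and 8 largest falls, both regulators, and those not called or against most of their role, and up to 4 were named of each further list. DESeq2 1.42.0, other scaling, no filter, other zone rules and leaving out each section were the alternatives, and a cortex defined by the podocyte gene Nphs1 (at least 2 UMIs in a spot and its neighbours) was added after seeing the data. Under the alternatives all genes called were counted without a split by direction. The scripts were tested on simulated data. Intervals from sequencing depth cover counting error only, and depth ran from 25957128 to 44528078 UMIs. No column of another sample was used.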

Additional observations from a re-analysis of the deposited data

Results flagged for a closer look

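The change with ischemia differed between outer stripe and cortex in 32 of the 38 genes by the test of that difference itself (outer stripe change minus cortex change, log2, edgeR with the section as a block, adjusted over all genes tested). Among the peroxisomal genes the differences were -3.03 for Crot, -2.93 for Acox2, -2.61 for Ehhadh, -1.72 for Acaa1b, -1.70 for Pex11a, -1.40 for Cat, -1.24 for Amacr, -1.12 for Hacl1, -0.92 for Hsd17b4, -0.89 for Eci2, -0.87 for Decr2 and -0.86 for Pecr. In mitochondrial oxidation they were -2.06 for Acadm, -1.62 for Decr1, -1.32 for Eci1, -1.21 for Acadl, -1.14 for Acadvl, -1.06 for Acads, -1.04 for Hadh, -0.99 for Echs1, -0.77 for Hadha and -0.50 for Hadhb. In the remaining roles they were -1.57 for Slc27a2, -1.48 for Acsm1, -1.26 for Crat, -1.19 for Cpt2, -0.84 for Slc25a20, -0.52 for Cpt1a, -1.13 for Etfdh, -1.01 for Etfb, -0.69 for Etfa and -0.96 for Ppargc1a. Of these, 15 kept their call under every alternative run. Leaving out ischemic section 1 left 15 calls and leaving out ischemic section 2 left 20.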

How the results depend on the processing

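Of the members called, 20 of 26 over whole sections, 20 of 29 in cortex and 25 of 32 in the outer stripe kept their call under every alternative run. With scaling by total UMIs alone, the count of rises was 7 over whole sections and 3 in the outer stripe, 9 members were lower in the normal inner stripe than in cortex and 1 was higher in the normal inner medulla. The same scaling turned the whole-section changes of Ppara (0.20), Cpt1a (0.063), Cpt2 (0.14), Acadvl (0.092), Acadl (0.26), Hadha (0.19), Ehhadh (0.14) and Decr2 (0.012), that of Crat in cortex (0.20), those of Hsd17b4 (0.15) and Acaa1b (0.15) in the outer stripe and the zone difference of Acaa2 (0.054), which also turned with zones set without neighbours (0.18). Of these only Decr2 over whole sections had been called. With no low count filter Acadl turned over whole sections (0.0097) and Crat in cortex (0.0068), and Crat also turned without fat spots (0.016). In cortex Hadhb was -0.018 with DESeq2 and with RLE size factors, -0.0095 with 1 model for all zones and -0.24 with Nphs1-defined cortex, where Cpt1a was -0.21, Etfdh -0.028, Decr2 -0.10 and Eci2 -0.14. In the outer stripe Pex11a was -0.0026 with DESeq2, -0.0061 with RLE size factors, -0.11 in spots away from zone boundaries and -0.0020 with 1 model for all zones.

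With DESeq2, 1935 genes were called in the inner medulla, 4992 with 1 model for all zones, and 8 members were higher in normal outer stripe than in cortex. Without the section block that count was 7, with 2 lower and 2217 genes called, 10 members were lower in normal inner stripe, and 1735 genes differed in their change between zones. With Nphs1-defined cortex 7 members were higher in cortex, where 4255 genes were called, 3 members were lower in normal outer stripe and 945 genes differed in their change, with zone differences of -0.016 for Ppara, 0.023 for Acsl1 and 0.11 for Acaa2. In spots away from boundaries 2 members were higher in the normal inner stripe.

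Leaving out each section in turn gave 19 to 28 members lower and 1 to 5 higher over whole sections, 9 to 14 higher and 13 to 19 lower in cortex, for the outer stripe 31 to 34 lower and 0 to 1 higher, for the inner stripe 24 to 35 lower and 13 to 27 lower and 0 to 1 higher in the inner medulla. The zone difference was called in 15 to 35 members and in 526 to 4049 genes. In the normal zones it gave 8 to 20 higher and 3 to 10 lower in outer stripe, 2 to 8 higher and 12 to 21 lower in inner stripe, and 28 to 33 lower and 0 to 1 higher in inner medulla. All genes called were 6493 to 10877, 4801 to 7675, 7812 to 9128, 3138 to 7545 and 1561 to 4018 over whole sections, cortex, outer stripe, inner stripe and inner medulla, and 2039 to 3845, 2929 to 4259 and 4271 to 5033 in the 3 normal zone tests. The lone section left in an arm is assumed to vary like the others. Signs turned over whole sections for Ppara (-0.30 to 0.12), Cpt2 (-0.31 to 0.033), Acadl (-0.15 to 0.12), Hadha (-0.19 to 0.011), Eci1 (-0.052 to 0.15), Decr1 (-0.16 to 0.31), Ehhadh (-0.30 to 0.090) and Hsd17b4 (-0.046 to 0.35), in cortex for Crat (-0.21 to 0.18), Ppara (-0.029 to 0.32), Cpt1a (-0.058 to 0.13) and Hadhb (-0.084 to 0.075), in the outer stripe for Slc22a5 (-0.088 to 0.47), Pex11a (-0.10 to 0.14) and Ppara (-0.013 to 0.93), and for the zone difference of Ppara (-0.029 to 0.71). None of these had been called. The causes were not tested.

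The section numbers carry no stated pairing, and the differences between sections 1 and 2 correlated at 0.16 across 15305 genes (not independent replicates) between conditions. With the replicate block 24 members were lower and 4 higher over whole sections, 17 and 13 in cortex, 22 and 0 in the inner medulla and 33 and 0 in each stripe, and Crat in cortex was 0.00022. With 2 sections per condition, small changes of scarce genes such as Ppara were not detectable at this depth.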
